A study of Mus musculus with 6 samples.

Results

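The genes described here are 10 enzymes and carriers of mitochondrial fatty acid oxidation (FAO), Cpt1a, Slc25a20, Cpt2, Acadvl, Acadm, Acads, Etfdh, Echs1, Hadha and Hadhb, compared between wild-type (WT) and Zfp335-deficient (KO) Tregs. They were taken by symbol from a table of 32285 genes, in which all 10 were found, and all 10 were among the 17307 genes that passed the expression filter. The set was chosen by the pathway and with the counts of these same WT and KO libraries already known, so the differences between WT and KO in these 10 genes are given as a description, without a test.

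The series measured total RNA by sequencing in CD4+CD25+ Tregs from the spleen, with 3 libraries in each of 2 groups, all on the C57BL/6 background. KO cells came from ERCre mice with both Zfp335 alleles floxed (Zfp335 fl/fl), in which tamoxifen activates Cre recombinase. WT cells came from wild-type littermates according to the sample labels, and from tamoxifen-treated ERCre mice according to the methods of the study. In the methods, tamoxifen (10 mg/mL) was injected 3 times into 6-week-old mice and cells were taken on day 7, whereas the labels mention no tamoxifen. The sources used here do not name the promoter that drives ERCre, and this Cre is not confined to Tregs, so other cells of the KO mice may also have lost Zfp335. The cells were sorted on CD4 and CD25 and not on Foxp3. Nothing states that the 3 libraries of a group came from separate mice, so each p-value below measures the spread between libraries, which may in part be technical.

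In FAO, long-chain fatty acids that have been activated to acyl-CoA are carried into mitochondria by the carnitine shuttle. Carnitine palmitoyltransferase 1 (Cpt1) in the outer membrane makes acyl-carnitine, the carrier Slc25a20 exchanges it for carnitine across the inner membrane, and Cpt2 makes acyl-CoA again on the inside. Each turn of beta oxidation then runs through an acyl-CoA dehydrogenase, a hydratase, a second dehydrogenase and a thiolase, and it yields acetyl-CoA for the citric acid cycle and electrons for the respiratory chain. Tregs are known to use fatty acids as a fuel.

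The libraries held between 133283969 and 209041812 counts. Values are given as CPM, the scaled expression unit of edgeR (counts relative to the library size after TMM scaling), and log2 fold changes are KO minus WT with their standard error (SE) from edgeR's fit. Zfp335, the deleted gene, was 124, 121 and 115 CPM in WT and 14.96, 14.3 and 15.1 CPM in KO (log2 fold change -3.02, SE 0.046, edgeR adjusted p = 1.2e-13). Over all tested genes, 12.0% were called higher and 12.1% lower in KO (adjusted p under 0.05), and the lower genes made up 50.1% of these calls, or 61.4% when libraries were scaled by their totals alone. Xist, which is transcribed from the inactive X chromosome, lay between 0.187 and 0.424 CPM in WT and between 124 and 145 CPM in KO, so sex and genotype cannot be told apart in these groups. Summed markers of red cells (5 of 5 lower in KO) lay between 36.5 and 43.4 CPM in WT and between 1.81 and 2.31 CPM in KO. B cell markers (4 of 4 lower) lay between 38.5 and 42.4 CPM in WT and between 19.1 and 20.8 CPM in KO, and myeloid markers (4 of 6 lower) between 46.2 and 50.8 CPM in WT and between 26.7 and 29.1 CPM in KO. Markers of CD8 T and NK cells (4 of 4 not called) lay between 15.02 and 15.9 CPM in WT and between 14.4 and 15.8 CPM in KO. Markers of Tregs and CD4 T cells (2 of 7 higher, Ctla4 and Tnfrsf18, and 2 lower, Foxp3 and Il2ra) summed to between 3575 and 3622 CPM in WT and to between 3669 and 3724 CPM in KO. Foxp3 had a log2 fold change of -0.11 and Il2ra of -0.15, and Ctla4 went from a mean of 410.3 CPM in WT to 645 CPM in KO. No marker of these lists was at 0 in any library, and the part of other cells or of sex in the differences below was not tested.

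The carnitine shuttle held the largest difference among the 10 genes, with its first enzyme and its carrier higher and its last enzyme lower in KO. Cpt1a, the Cpt1 form of most tissues outside muscle and the step at which FAO is mainly controlled, was 72.5, 71.8 and 68.8 CPM in WT replicates 1, 2 and 3 and 151, 154 and 153 CPM in KO replicates 1, 2 and 3. Every KO library was therefore far above every WT library, and the libraries of each group lay close together. The log2 fold change was 1.10 (SE 0.035), with a ratio of the mean KO to the mean WT level of 2.15. In bulk RNA, more cells that express a gene and more RNA per cell cannot be told apart, which holds for each gene here. Only 2.0% of the 17307 tested genes had a larger log2 fold change. Cpt1a lies on the plus strand at chr19:3322334-3385733 of GRCm38, overlaps no other annotated gene and has 0.851% of its 50-base stretches in common with other transcripts.

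Slc25a20, the carnitine-acylcarnitine carrier of the inner membrane, was 28.2, 29.4 and 27.4 CPM in WT and 37.1, 36.7 and 37.5 CPM in KO. Its groups did not overlap either, with a log2 fold change of 0.39 (SE 0.044), a much smaller step than that of Cpt1a. Cpt2, which returns the acyl group to CoA inside the mitochondrion, was 12.8, 11.1 and 11.6 CPM in WT and 10.01, 8.85 and 8.69 CPM in KO. It was lower in every KO library than in every WT library (log2 fold change -0.37, SE 0.078), but its libraries were more spread than those of the other shuttle genes, and the highest KO library lay near the lowest WT library. Slc25a20 lies at chr9:108662088-108684641 on the plus strand and Cpt2 at chr4:107903981-107923610 on the minus strand.

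The promoter window of Cpt1a is shown because this gene had the largest difference of the 10. It covers chr19:3323051-3323350 on the plus strand of GRCm38.p6 in RefSeq, from 250 bases before the RefSeq start to 50 bases after it, and runs 5′ to 3′. This window lies inside the GENCODE gene, which begins upstream of it at chr19:3322334. Capitals mark the letters that match one of the 9 motifs searched on both strands, which are spelled out further below.

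Cpt1a: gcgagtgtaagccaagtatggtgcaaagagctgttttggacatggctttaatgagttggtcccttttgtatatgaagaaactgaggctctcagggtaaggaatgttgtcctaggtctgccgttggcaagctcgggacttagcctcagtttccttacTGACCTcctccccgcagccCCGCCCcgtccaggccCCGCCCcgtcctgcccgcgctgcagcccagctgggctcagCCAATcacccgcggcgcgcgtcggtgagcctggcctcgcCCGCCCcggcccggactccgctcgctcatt

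In this window the CCGCCC runs are GGGCGG read from the other strand, at 75 and 59 bases before the start and 20 bases after it. CCAAT begins 19 bases before the start, and TGACCT, which is AGGTCA read from the other strand, begins 94 bases before it.

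**Figure D1:**
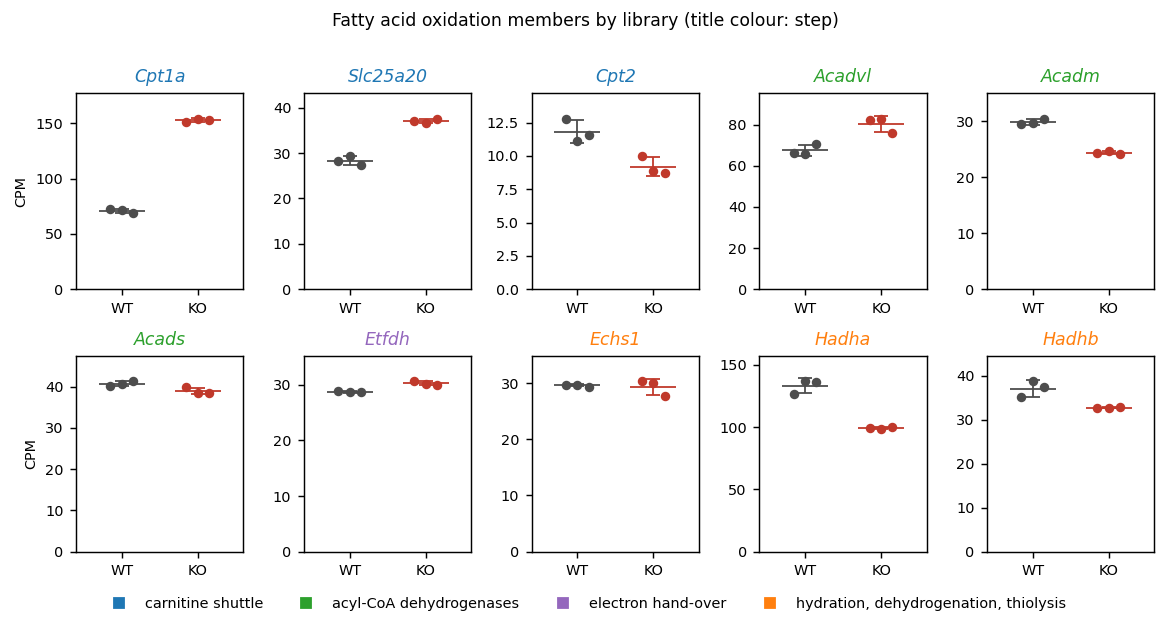
CPM of the 10 genes in each WT and KO library (dots), with the group mean and SD (bars), on axes that start at 0 and with the title colour giving the step. The KO dots lie above the WT dots for Cpt1a, Slc25a20, Acadvl and Etfdh, below them for Cpt2, Acadm, Acads, Hadha and Hadhb, and among them for Echs1.

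The acyl-CoA dehydrogenases, which start each turn of beta oxidation on chains of different length, did not differ in 1 direction. Acadvl, the enzyme for very long chains, was 66.4, 65.7 and 70.3 CPM in WT and 82.0, 82.8 and 75.8 CPM in KO. The groups did not overlap, and KO replicate 3 lay nearest to WT (log2 fold change 0.25, SE 0.044). Acadm, the enzyme for medium chains, was 29.4, 29.7 and 30.4 CPM in WT and 24.3, 24.7 and 24.1 CPM in KO. All KO libraries were below all WT libraries, and both groups were tight (log2 fold change -0.29, SE 0.044). Acads, the enzyme for short chains, was 40.3, 40.7 and 41.4 CPM in WT and 39.9, 38.5 and 38.5 CPM in KO. The KO libraries were again below the WT libraries, but by a small step (log2 fold change -0.065, SE 0.040), and Acads was not among the genes called at an adjusted p under 0.05. Acadm lies at chr3:153922357-153944632 and Acads at chr5:115110299-115119346, both on the minus strand. Acadvl, at chr11:70010183-70015411 on the minus strand, overlaps Dvl2 on the other strand over 2119 bases and shares 26.9% of its 50-base stretches with it. The sources used here do not say whether counting used the strand, so reads of Dvl2 in the counts of Acadvl cannot be left out. Dvl2 had a mean of 57.7 ± 5.72 CPM in WT and of 63.5 ± 0.714 CPM in KO (SD, n = 3 per group), and its log2 fold change was 0.14 (SE 0.057, edgeR adjusted p = 0.108).

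Etfdh passes the electrons that the acyl-CoA dehydrogenases release on to ubiquinone. It was 28.9, 28.7 and 28.6 CPM in WT and 30.7, 30.1 and 30.1 CPM in KO, so the KO libraries lay above the WT libraries by a narrow margin. Its log2 fold change of 0.075 (SE 0.043) was not called. Etfdh lies at chr3:79603788-79629500 on the minus strand, where it overlaps 4930579G24Rik over 422 bases and Gm37973 over 1289 bases. 4930579G24Rik had a mean of 6.4 ± 0.756 CPM in WT and of 7.39 ± 0.239 CPM in KO (SD, n = 3 per group). Its log2 fold change was 0.19 (SE 0.088, edgeR adjusted p = 0.141), and its reads in the counts of Etfdh cannot be left out.

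Of the enzymes that finish the turn, both subunits of the trifunctional protein were lower in KO and the short-chain hydratase was not. Echs1, the hydratase for short chains, was 29.7, 29.7 and 29.4 CPM in WT and 30.3, 29.9 and 27.7 CPM in KO. It was the one gene of the 10 whose groups overlapped, with 2 KO libraries above and 1 below all WT libraries (log2 fold change -0.014, SE 0.048). Hadha, the alpha subunit of the trifunctional protein, which carries the hydratase and the second dehydrogenase for long chains, was 127, 137 and 136 CPM in WT and 99.5, 98.7 and 99.9 CPM in KO. All KO libraries were lower, and they lay closer to each other than the WT libraries did (log2 fold change -0.42, SE 0.038). This was the largest decrease among the 10 genes, and 12.2% of all tested genes had a smaller log2 fold change. Hadhb, the beta subunit with the thiolase, was 35.1, 38.8 and 37.4 CPM in WT and 32.7, 32.7 and 33.0 CPM in KO. It was lower as well, by less than Hadha (log2 fold change -0.18, SE 0.047), and WT replicate 1 lay nearest to KO. Hadhb was no longer called at an adjusted p under 0.05 without WT replicate 2, KO replicate 1 or KO replicate 2, and no other gene of the 10 changed its call when any 1 of the 6 libraries was left out. Hadhb shares 19.7% of its 50-base stretches with other transcripts, among them the pseudogenes Gm13910 and Gm9108, and Hadha shares 0.341%. Hadha overlaps Garem2 over 75 bases, and the microRNA genes Mir324 and Mir1960 lie within Acadvl and Hadhb. Echs1, at chr7:140105710-140116476 on the minus strand, overlaps Paox over 678 bases.

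Hadha and Hadhb are neighbours that are read away from each other. Hadha lies at chr5:30118304-30155162 on the minus strand and Hadhb at chr5:30155248-30184593 on the plus strand, and in the GENCODE annotation their starts are 86 bases apart. RefSeq places their starts 273 bases apart, and the promoter windows around the RefSeq starts, chr5:30154931-30155230 and chr5:30155003-30155302 in GRCm38.p6, share 228 bases, which is why the Hadha window is shown, 5′ to 3′ on the minus strand, with motif matches in capitals.

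Hadha: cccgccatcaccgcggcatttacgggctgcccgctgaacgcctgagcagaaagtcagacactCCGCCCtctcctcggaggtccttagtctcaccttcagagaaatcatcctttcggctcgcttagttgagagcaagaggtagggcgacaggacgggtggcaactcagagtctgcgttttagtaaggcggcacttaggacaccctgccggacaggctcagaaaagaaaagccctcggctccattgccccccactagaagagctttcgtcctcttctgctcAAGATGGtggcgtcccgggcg

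Its match to GGGCGG begins 188 bases before the RefSeq start of Hadha, and AAGATGG begins 29 bases after that start.

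Over the 10 genes, 3 were called higher (Cpt1a, Slc25a20 and Acadvl), 4 lower (Cpt2, Acadm, Hadha and Hadhb) and 3 were not called (Acads, Etfdh and Echs1). Against these stand the 12.0% and 12.1% of all tested genes called higher and lower. Because the genes were chosen on this contrast, nothing is read from that difference. The groups did not overlap for 9 of the 10 genes, 4 with every KO library above and 5 with every KO library below WT, beside 19.3% and 19.1% of all tested genes. The median log2 fold change of the 10 genes was -0.039, beside -0.0042 over all tested genes. With a stricter rule that also asks for a 1.5-fold difference (p under 0.05, adjusted p under 0.1), which 2.58% of the tested genes passed as higher and 4.37% as lower, Cpt1a was the one gene of the 10 that passed.

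**Figure D2:**
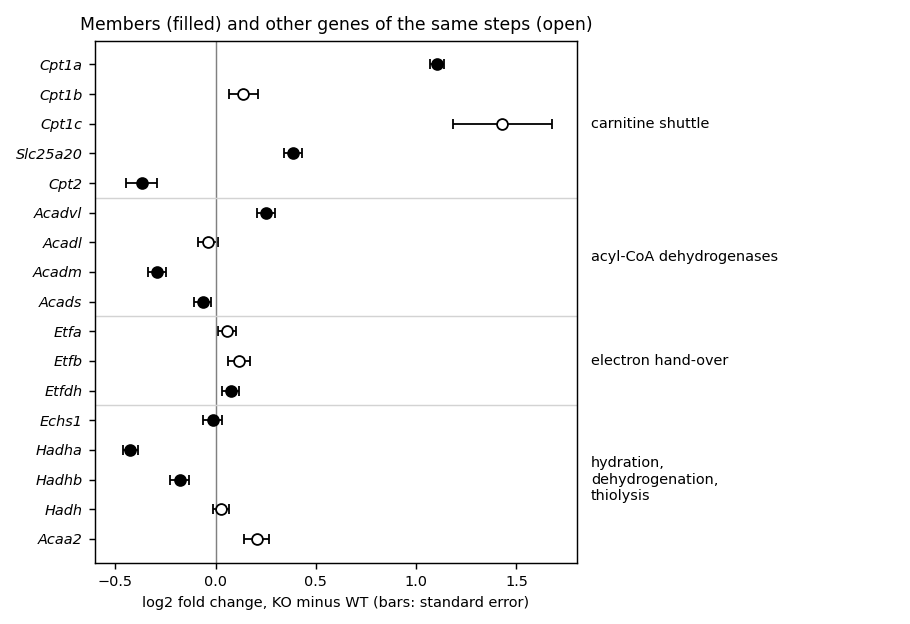
Log2 fold changes (KO minus WT, points) with SE (bars) for the 10 genes (filled) and for other genes of the same steps (open), grouped by step. Cpt1a (1.10) and Cpt1c (1.43) lie far to the right, Hadha (-0.42) and Cpt2 (-0.37) furthest to the left, and most other points lie near 0.

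Because the genes moved in different directions, their levels relative to each other changed within each library. For this comparison the counts were divided by the length of each gene's combined exons and scaled to the same total in every library (TPM). The TPM ratio of Cpt1a to Cpt2, the first and the last enzyme of the shuttle, was 1.78, 2.02 and 1.86 in WT and 4.72, 5.45 and 5.53 in KO. Each KO library thus held far more Cpt1a RNA for each Cpt2 RNA than any WT library. The TPM ratio of Cpt1a to Hadha was 0.654, 0.599 and 0.576 in WT and 1.73, 1.78 and 1.75 in KO, so that the order of these genes was turned around in every KO library. The TPM ratio of Acadvl to Acadm was 3.28, 3.23 and 3.37 in WT and 4.92, 4.88 and 4.58 in KO. It too did not overlap between the groups. Hadha and Hadhb form a complex with equal numbers of both subunits, and their TPM ratio was 2.73, 2.67 and 2.76 in WT and 2.30, 2.28 and 2.29 in KO. This ratio was lower in all KO libraries, with a spread in KO of 0.0067 (SD, n = 3). The size of each ratio rests on the gene lengths used, whereas its relative change from WT to KO does not.

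**Figure D3:**
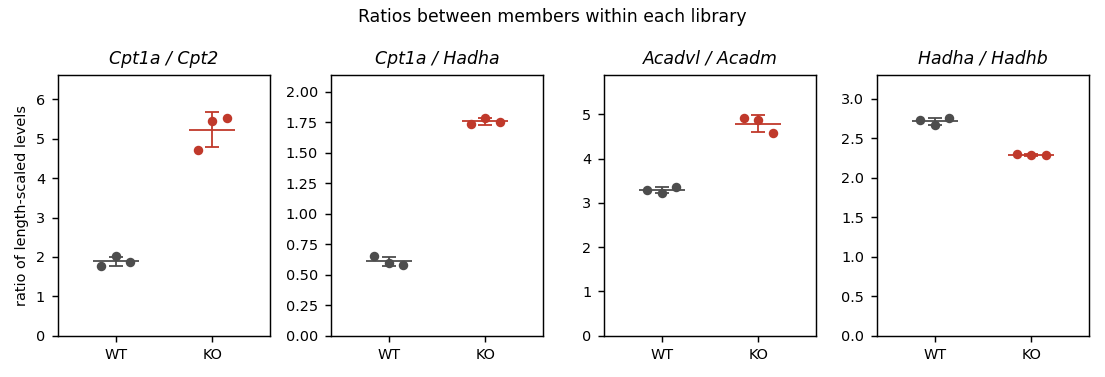
Ratios of length-scaled levels (TPM) within each library (dots) for WT and KO, with the group mean and SD (bars), on axes that start at 0. The mean of Cpt1a over Cpt2 is 1.89 in WT and 5.23 in KO, that of Cpt1a over Hadha 0.61 and 1.76 and that of Acadvl over Acadm 3.29 and 4.79, whereas that of Hadha over Hadhb is 2.72 in WT and 2.29 in KO.

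On the TPM scale the order of the genes in WT was Acadvl (86.8 ± 2.15, SD, n = 3), Acads (62.1 ± 0.177), Hadha (52.8 ± 1.97), Cpt1a (32.2 ± 1.30), Acadm (26.4 ± 0.114), Slc25a20 (20.2 ± 0.914), Hadhb (19.5 ± 0.957), Cpt2 (17.1 ± 1.34), Etfdh (13.2 ± 0.224) and Echs1 (12.4 ± 0.241). The libraries of Slc25a20 and Hadhb overlapped in WT, as did those of Hadhb and Cpt2, and the other neighbours in this order did not. In KO, Cpt1a (68.5 ± 1.19 TPM, SD, n = 3) had passed Acads (58.8 ± 0.808 TPM) and Hadha (39.0 ± 0.305 TPM) to stand in second place behind Acadvl (102.2 ± 4.70 TPM). Slc25a20 (26.2 ± 0.325 TPM) stood above Acadm (21.3 ± 0.318 TPM) in KO, and Cpt2 (13.1 ± 0.948 TPM) overlapped with Etfdh (13.8 ± 0.0739 TPM). Cpt1a made up 9.39 ± 0.370% of the summed TPM of the 10 genes in WT and 18.4 ± 0.440% in KO (SD, n = 3 per group), while Hadha went from 15.4 ± 0.523% to 10.5 ± 0.227%. The summed TPM of the 10 genes was 342, 345 and 342 in WT and 374, 376 and 366 in KO, and without Cpt1a it was 309, 312 and 311 in WT and 307, 307 and 297 in KO. The order rests on the length used. With the longest transcript in place of all exons, Hadha (86.6 ± 3.34 TPM) came first in WT and overlapped with Acadvl (81.1 ± 2.16 TPM), and Cpt1a was again second in KO (91.3 ± 1.56 TPM, SD, n = 3), there overlapping with Acadvl (95.3 ± 4.36 TPM).

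**Figure D4:**
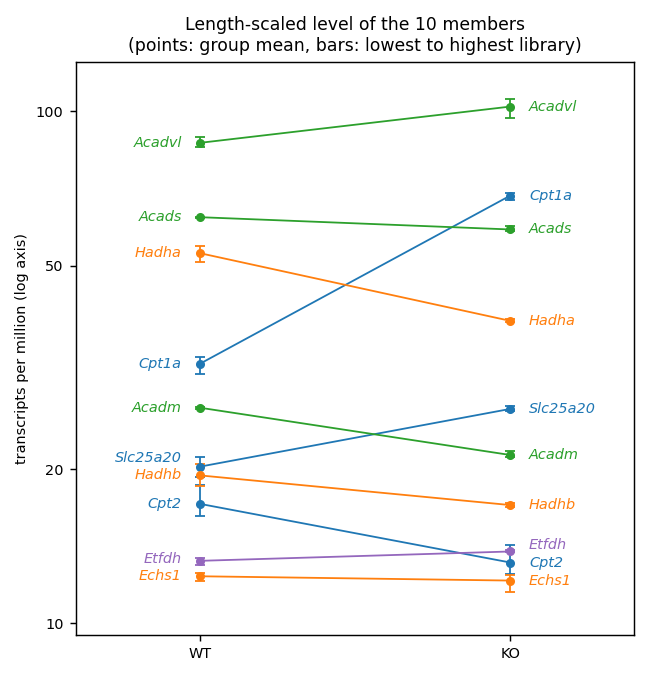
Length-scaled levels (TPM, log axis) of the 10 genes in WT and KO, with points for the group mean, bars from the lowest to the highest library and colours for the steps. The line of Cpt1a goes from 32.2 to 68.5 TPM and crosses those of Acads and Hadha, and the line of Slc25a20 crosses that of Acadm.

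All 10 genes had 1 RefSeq promoter window of 300 bases, with a GC content between 50.7% (Acadvl) and 63.7% (Echs1), beside a median of 52.7% over all 32851 windows of mouse genes, some of which have several. GGGCGG, the box bound by Sp1 and Klf factors, was found on either strand in 8 of the 10 windows, of which those of Hadha and Hadhb share bases, beside 35.7% of all windows, with Acadvl and Acadm as the exceptions. It occurred 3 times each in Cpt1a, Slc25a20, Cpt2 and Echs1 and 4 times in Hadhb. AGGTCA, the hexamer bound by many nuclear receptors, was found in Cpt1a, Acadvl, Acadm and Echs1 (16.3% of all windows). CCGGAAG, a form of the ETS site, was in Slc25a20 and Cpt2 (8.86% of all windows), and GCGCATGC, the core of the NRF1 site, in Acadm and Etfdh (2.71% of all windows). AAGATGG, a form of the YY1 site, was in Acadvl and Hadha (6.34% of all windows), and CCAAT, the NF-Y box, in Cpt1a and Etfdh (37.4% of all windows). The windows of these 10 genes held no TGACGTCA, CACGTG or TCAAGGTCA, which were in 1.79%, 7.15% and 0.423% of all windows. AGGTCA lies within TCAAGGTCA, and the other motifs do not contain each other. These letters are a description of the windows and show no binding. Genes higher and lower in KO shared motifs, as Slc25a20 and Cpt2 did with CCGGAAG, and Acadvl and Hadha with AAGATGG. A link between motifs and the direction of the differences was not tested.

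The genes whose pattern over the 6 libraries was most like that of Cpt1a were Dusp4, Gm9821 and Per1, and those most like Hadha were Rbm12b2, Gbp2 and Eftud2. Likeness was the root-mean-square difference of log2 CPM, each gene centred on its own mean, among 9080 well-expressed genes. This difference was 0.025 for Dusp4 (200 CPM in WT and 425 CPM in KO), 0.028 for Gm9821 (35.6 and 78.5 CPM) and 0.053 for Per1 (259 and 535 CPM). For Hadha it was 0.018 for Rbm12b2 (32.2 CPM in WT and 23.8 CPM in KO), 0.021 for Gbp2 (117 and 86.7 CPM) and 0.022 for Eftud2 (171 and 128 CPM). With 3 libraries per group, such likeness mostly picks genes with a similar log2 fold change. The log2 fold changes were 1.09, 1.14 and 1.05 for the genes near Cpt1a (1.10). For those near Hadha (-0.42) they were -0.43, -0.43 and -0.42. Shared regulation was not tested.

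Most isoforms and partners of the 10 genes at the same steps were not called, which does not show that they were equal in both groups. Of the 20 other genes of mitochondrial beta oxidation on the list, 2 were higher in KO, Cpt1c and Acaa2, and 18 were not called, with a median log2 fold change of 0.033. This share of higher genes is near the 12.0% called higher over all tested genes. Cpt1c, the Cpt1 form known from neurons, rose from 0.378 ± 0.0484 to 1.02 ± 0.186 CPM (SD, n = 3 per group), with a log2 fold change of 1.43 (SE 0.248, edgeR adjusted p = 0.000951). It was a weak signal beside Cpt1a even in KO. Cpt1b, the Cpt1 form of muscle, had 7.48 ± 0.411 CPM in WT and 8.20 ± 0.182 CPM in KO (log2 fold change 0.14, SE 0.072, edgeR adjusted p = 0.196), and 78.6% of its 50-base stretches are shared with the read-through transcript Gm44502. Acadl, the dehydrogenase for long chains, had 32.7 ± 1.65 CPM in WT and 31.8 ± 0.956 CPM in KO (edgeR adjusted p = 0.63). Etfa and Etfb, the subunits of the flavoprotein that brings electrons to Etfdh, had log2 fold changes of 0.058 (SE 0.044, edgeR adjusted p = 0.397) and 0.12 (SE 0.055, edgeR adjusted p = 0.158), and Etfb passed the threshold without WT replicate 1 (adjusted p = 0.00786). Hadh, the second dehydrogenase for shorter chains, had a log2 fold change of 0.027 (SE 0.040, edgeR adjusted p = 0.685). Acaa2, a thiolase of the matrix, rose from 43.6 ± 3.76 to 50.3 ± 3.19 CPM (SD, n = 3 per group), with a log2 fold change of 0.21 (SE 0.062, edgeR adjusted p = 0.0288) although its libraries overlapped. The call of Acaa2 was lost without WT replicate 2 (adjusted p = 0.153), WT replicate 3 (0.0708), KO replicate 1 (0.138) or KO replicate 2 (0.0697).

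Outside the oxidation steps, genes known as targets of PPAR receptors had the highest median log2 fold change of the 8 lists examined, and genes of fatty acid synthesis the lowest. All 8 lists were chosen with earlier results of these data known. Their order, counts and medians are therefore a description, and nothing is read from them about the lists as sets. Of 9 PPAR target genes on the list 7 could be tested, and 4 were higher in KO, beside 12.0% of all tested genes. The other 3 were not called, and the median log2 fold change was 0.78 (-0.0042 over all tested genes). Those not called were Angptl4 (log2 fold change 0.038, SE 0.11, edgeR adjusted p = 0.849), Ucp2 (0.12, SE 0.044, edgeR adjusted p = 0.0617) and Ucp3 (1.27, SE 0.54, edgeR adjusted p = 0.114). Acot2, a mitochondrial thioesterase that splits acyl-CoA, rose from 23.2 ± 1.21 to 40.0 ± 1.14 CPM (SD, n = 3 per group; log2 fold change 0.78, SE 0.050, edgeR adjusted p = 1.21e-07). Its cytosolic relative Acot1 rose from 2.72 ± 0.207 to 4.64 ± 0.291 CPM (log2 fold change 0.78, SE 0.11, edgeR adjusted p = 0.000127). Acot1 and Acot2 share 19.2% and 27.7% of their 50-base stretches with related genes, so that reads may be split between them. Cyp4a10, a fatty acid hydroxylase, had 0, 4 and 44 counts in WT and 74, 120 and 185 counts in KO (edgeR adjusted p = 0.0191). It passed the expression filter only with its KO libraries, where it is high, so its call adds no weight to the 4 higher genes. Its call was lost with DESeq2 (adjusted p = 0.322), with the legacy method of edgeR (0.271) and without WT replicate 2 (0.079), KO replicate 2 (0.0515) or KO replicate 3 (0.0502).

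Among 12 genes of fatty acid synthesis, 5 were lower in KO, beside 12.1% of all tested genes, and 7 were not called, with a median log2 fold change of -0.14. The fatty acid desaturase Fads2 fell from 1.34 ± 0.176 to 0.688 ± 0.0937 CPM (log2 fold change -0.94, SE 0.20, edgeR adjusted p = 0.0036). Fads1, another desaturase, had a log2 fold change of -0.23 (SE 0.058, edgeR adjusted p = 0.0129) and lost its call without WT replicate 2 (adjusted p = 0.0692) or KO replicate 3 (0.0723). The elongases Elovl1 and Elovl5 fell as well, with log2 fold changes of -0.21 (SE 0.040, edgeR adjusted p = 0.00194) and -0.19 (SE 0.032, edgeR adjusted p = 0.000778).

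Of 14 regulators of FAO, 13 could be tested, of which 3 were higher and 2 lower in KO, beside 12.0% and 12.1% of all tested genes, with a median log2 fold change of 0.035. Malonyl-CoA, which inhibits Cpt1 enzymes, is made by the acetyl-CoA carboxylases Acaca and Acacb. Acaca fell from 47.9 ± 3.28 to 37.7 ± 0.350 CPM (SD, n = 3 per group; log2 fold change -0.35, SE 0.050, edgeR adjusted p = 0.000217), and 30.4% of its 50-base stretches are shared with other transcripts. Acacb, the form at the mitochondrial surface, went the other way, from 12.9 ± 0.149 to 14.5 ± 0.311 CPM (log2 fold change 0.17, SE 0.056, edgeR adjusted p = 0.0397). That call was lost in each fit that left out 1 library (adjusted p between 0.0542 and 0.141) except the one without WT replicate 3. The coactivator gene Ppargc1b rose from 15.1 ± 0.797 to 18.1 ± 0.573 CPM (log2 fold change 0.25, SE 0.058, edgeR adjusted p = 0.00654). Nrip1, a corepressor of nuclear receptors, rose from 169 ± 6.14 to 204 ± 2.86 CPM (log2 fold change 0.27, SE 0.035, edgeR adjusted p = 8.65e-05).

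Of 11 genes of fatty acid uptake and activation, 2 were higher and 2 lower in KO, near the 12.0% and 12.1% of all tested genes, with a median log2 fold change of 0.082. The acyl-CoA synthetase Acsl3 fell from 14.2 ± 0.178 to 11.0 ± 1.27 CPM (SD, n = 3 per group; log2 fold change -0.37, SE 0.077, edgeR adjusted p = 0.00363). Slc27a2, a fatty acid transporter, had 0, 0 and 33 counts in WT and 99, 106 and 123 counts in KO (edgeR adjusted p = 0.00402). It passed the expression filter only with its KO libraries, where it is high, so its call adds no weight to the 2 higher genes. Slc27a2 was also not called with DESeq2 (adjusted p = 0.433) or the legacy method of edgeR (0.249). Acsl1 was higher by 0.17 on the log2 scale (SE 0.055, edgeR adjusted p = 0.041), a call lost in each fit that left out 1 library (adjusted p between 0.0624 and 0.154). Acsl4 was lower, with a log2 fold change of -0.14 (SE 0.040, edgeR adjusted p = 0.0254), and lost its call in each such fit (adjusted p between 0.0605 and 0.101) except the one without WT replicate 1.

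**Figure D5:**
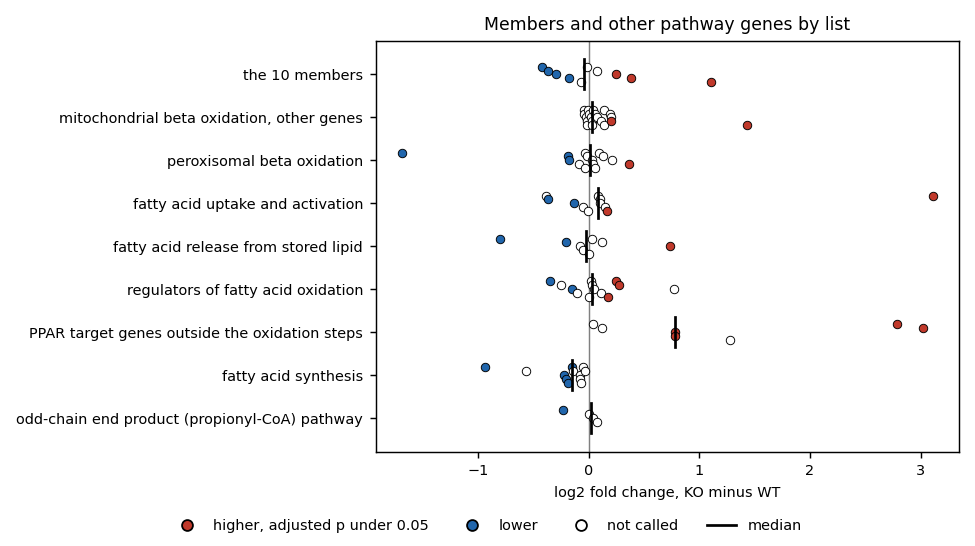
Log2 fold changes (KO minus WT) of the 10 genes and of the 89 tested genes of the other pathway lists, 1 row of points per list, with filled points for genes called at an adjusted p under 0.05 and a black line for the median. The median of the PPAR target genes lies at 0.78 and that of fatty acid synthesis at -0.14, and the medians of the other lists lie between -0.039 and 0.082.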

How the data were processed

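Raw counts by gene symbol were deposited by the authors for 6 libraries of splenic CD4+CD25+ Tregs, without normalization. Per the labels' processing notes, HISAT2, DESeq2 and the build mm10 were used, and the counting tool is not given in the sources used here. All 6 libraries were used, grouped by their labels. The 10 genes and the lists of other genes were chosen with earlier results of these data known.

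Counts were analyzed in R 4.3.3 with the quasi-likelihood test of edgeR 4.0.16 (TMM scaling, robust estimates, filterByExpr), KO against WT, with Benjamini-Hochberg adjustment over 17307 genes and calls at an adjusted p under 0.05. The script was tested on simulated data. Libraries held 133283969 to 209041812 counts, and each of the 10 genes had at least 1556 counts in every library. TPM used exon lengths of the GENCODE annotation of GRCm38, which also gave positions and shared 50-base stretches. Promoter windows are from RefSeq (GRCm38.p6). Alternatives were other scalings, filters and thresholds, DESeq2 1.42.0, limma 3.58.1, counts divided by 4 as a check on several counts per fragment, leaving out groups of abundant genes, the replicate number as a block, and each library left out in turn.

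Named were the 10 genes, Zfp335, the isoforms and partners Cpt1b, Cpt1c, Acadl, Hadh, Acaa2, Etfa and Etfb, in every other list up to 4 called genes with the largest absolute log2 fold change, for Cpt1a and Hadha the 3 nearest genes of average log2 CPM of at least 3, and genes that overlap one of the 10 or start within 1000 bases of its start. Foxp3, Il2ra, Ctla4, Tnfrsf18 and the pseudogenes or read-through transcripts that share sequence are named outside this rule, as are Xist, Angptl4, Ucp2 and Ucp3. The values of 2 genes that this rule takes are not reported here.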

Additional observations from a re-analysis of the deposited data

How the results depend on the processing

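The direction of 9 of the 10 genes was kept under all 17 alternatives run, with log2 fold changes between 1.07 and 1.12 for Cpt1a and between -0.46 and -0.40 for Hadha. Echs1, which was not called, ranged from -0.045 to 0.025. With the 1.5-fold cutoffs the genes called over all genes went from 2082 higher and 2088 lower to 446 and 757, and the 10 genes to 1 higher and 0 lower (edgeR, and likewise DESeq2 and limma-voom, with 4 lower at an unadjusted p under 0.05), since fewer genes reach that fold. Leaving out each library in turn gave between 1341 and 2495 genes higher over all genes, and between 8 and 17 higher and 8 and 16 lower among the other pathway genes, beside 13 and 15 with all libraries. The fewest, 1341 and 8 higher, came without WT replicate 2, and the 8 lower without KO replicate 3. Hadh reversed to -0.0035 with library sizes alone. The labels number the libraries 1 to 3 in each group, but the deviations of same-numbered libraries correlated at 0.13, -0.042 and 0.016 over 9090 genes, so same-numbered libraries were not treated as pairs. With the replicate block, 2143 genes were higher and 2084 lower, 3 and 4 of the 10 genes and 15 and 15 of the other pathway genes, and Acsl1 and Acacb lost their call (adjusted p = 0.052 and 0.0544). Both also lost it with upper-quartile factors (0.0595 and 0.0579) and, with Acaa2, with library sizes alone (0.0897, 0.0881 and 0.0526). Slc27a2 and Cyp4a10 had counts of 0 in WT libraries, and a value for their fold is not given.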

Other observations

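Peroxisomes shorten fatty acids that mitochondria take up poorly, and of 14 genes of peroxisomal beta oxidation 1 was higher and 3 were lower in KO, beside 12.0% and 12.1% of all tested genes, with a median log2 fold change of 0.0089. Abcd2, a peroxisomal carrier of acyl-CoA, was weak, at 0.270 ± 0.0979 and 0.0826 ± 0.0272 CPM (SD, n = 3 per group, edgeR adjusted p = 0.0287), and lost its call in each fit that left out 1 library (adjusted p between 0.0585 and 0.124) except the one without WT replicate 2. It passed the expression filter only with its WT libraries, where it is high, so its call adds no weight to the 3 lower genes. Scp2, a lipid carrier and thiolase, had a log2 fold change of -0.17 (SE 0.044, edgeR adjusted p = 0.0121) and lost its call without WT replicate 2 (adjusted p = 0.0519), KO replicate 2 (0.078) or KO replicate 3 (0.0636). The thiolase Acaa1b rose from 3.90 ± 0.268 to 5.06 ± 0.378 CPM (edgeR adjusted p = 0.0152), shares 39.6% of its 50-base stretches with other genes such as Acaa1a, and lost its call without WT replicate 2 (adjusted p = 0.0793), KO replicate 1 (0.0679) or KO replicate 3 (0.0514).

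Of 8 genes that release fatty acids from stored lipid or coat lipid droplets, 1 was higher and 2 were lower in KO, beside 12.0% and 12.1% of all tested genes, with a median log2 fold change of -0.023. Mgll, which splits monoglycerides, rose from 1.24 ± 0.0552 to 2.07 ± 0.215 CPM (log2 fold change 0.74, SE 0.15, edgeR adjusted p = 0.0031). G0s2, an inhibitor of the lipase Pnpla2, fell from 1.23 ± 0.122 to 0.702 ± 0.155 CPM (log2 fold change -0.80, SE 0.21, edgeR adjusted p = 0.0133), a call lost without KO replicate 1 (adjusted p = 0.0519) or KO replicate 3 (0.0643). Plin3, a lipid droplet coat gene, had a log2 fold change of -0.20 (SE 0.052, edgeR adjusted p = 0.0119), lost without KO replicate 2 (adjusted p = 0.0508) or KO replicate 3 (0.0578). In the propionyl-CoA pathway, which takes up the end product of odd chains, 1 of 4 genes was called lower, beside 12.1% of all tested genes. It was Mmut, with a log2 fold change of -0.23 (SE 0.070, edgeR adjusted p = 0.0315), lost without WT replicate 2 (adjusted p = 0.0813), WT replicate 3 (0.0833), KO replicate 2 (0.148) or KO replicate 3 (0.0735).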
